A study of Homo sapiens with 16 samples.

Results

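The mitochondrial ribosomal proteins are the nuclear-encoded proteins of the ribosome that works inside mitochondria. Their genes were taken as all those whose symbol starts with MRPL (large subunit) or MRPS (small subunit) followed by a digit, without pseudogenes and antisense genes. The array measured 75 of them alone, 48 MRPL and 27 MRPS genes, among 19775 genes in all. The symbols MRPL20-AS1, MRPL45P2 and MRPS31P5 were left out by the rule, and MRPL53 and MRPS24 had only probe sets shared with other genes. The protein once called MRPS36 is listed on this array as KGD4 and was therefore not counted.

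The mitochondrial ribosome translates the few mRNAs encoded by mitochondrial DNA, which specify core subunits of the respiratory chain and of ATP synthase. All of its proteins are made on cytosolic ribosomes and imported. The kinase mTOR controls translation on those cytosolic ribosomes, in part through the 4E-BP proteins, which hold back the cap-binding factor eIF4E when mTOR is inhibited, and nuclear-encoded mitochondrial mRNAs are among the known targets of that route in other cells.

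MIA PaCa-2, an established line from a single pancreatic cancer, was exposed for 12 h to PP242 at 2.5 µM, a compound that blocks the active site of mTOR, or to DMSO as vehicle. From each culture condition, cytosolic RNA and RNA from the pooled sucrose gradient fractions in which an mRNA carries more than 3 ribosomes (polysome RNA) were hybridised to Affymetrix arrays. The 4 groups were polysome RNA with PP242, polysome RNA with vehicle, cytosolic RNA with PP242 and cytosolic RNA with vehicle, each with 4 arrays numbered 1 to 4. No label says that the replicates were separate cultures, so the p-values measure the spread between these arrays, which may be technical. Arrays of one group correlated at 0.972 to 0.997. Of the markers of this line, KRT8, KRT18, KRT19 and VIM lay above the 96th percentile of genes by mean level and KRT7 near the 55th. Among 16 measured markers of fibroblasts, leukocytes, endothelium and pancreatic acinar and islet cells, the collagen gene COL1A2 was high (98.1th percentile) and COL1A1 reached the 63.2nd, while the other 14 stood at or below the 53.9th.

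Levels are log2 values from RMA, a summary of the probes of each probe set. The polysome and cytosolic arrays appear to have been normalized apart from each other, so a PP242 effect is relative to the other mRNAs of the same pool, and a loss common to all mRNAs cannot be seen. The length and composition of probe sets differ, so no member's level is set against another's. Mean levels of the members ran between 6.86 and 12.13 in polysome RNA with PP242, 7.58 and 12.23 in polysome RNA with vehicle, 7.2 and 11.64 in cytosolic RNA with PP242, and 7.35 and 12.03 in cytosolic RNA with vehicle. The table as a whole spans 1.65 to 14.61.

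In polysome RNA, PP242 lowered 24 of the 75 members (32%) and raised 0, at an adjusted p under 0.05 in limma's moderated test over all genes. Over all genes, 6.55% were called lower and 6.82% higher, 13.4% in all. The other 51 members did not pass. The members' median log2 difference was -0.32 with quartiles of -0.51 and -0.22, against a median of 0 over all genes. The difference was below 0 for 68 of 75 members (90.7%), compared with 50.9% of all genes. Every PP242 array lay below every vehicle array for 41 members (54.7%), and the same held for 9.86% of all genes (19.3% apart in either direction). With the replicate number as a block, 37 members (49.3%) were called lower and 0 higher, beside 20.3% of all genes called and 9.72% called lower in the same fit. Many genes of the array are dimmer than any member. With genes of mean level under 5 left out, 27 members (36%) were called, all lower. In that fit 23.3% of all genes were called and 11.7% called lower.

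The number of calls depended on which arrays entered. Leaving out 1 replicate number at a time gave 8 calls without number 1, 10 without number 2, 19 without number 3 and 10 without number 4, all lower. These are 10.7%, 13.3%, 25.3% and 13.3% of the members, beside 4.39%, 3.91%, 5.23% and 4.63% of all genes called lower and 8.55%, 8.23%, 9.34% and 9.55% called in all. Without number 1 the members' share was therefore near that of all calls. The members MRPL46, MRPL48 and MRPS27 were called in all 4 of these fits. The median stayed between -0.34 and -0.29 in them.

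The 6 largest falls on polysomes were in the large subunit. MRPL44, a protein of the large subunit with a ribonuclease III-like fold, had log2 levels of 6.95, 7.09, 6.52 and 6.86 in polysome RNA with PP242, against 7.51, 7.84, 7.57 and 7.59 with vehicle. The groups did not overlap. The difference was -0.77 ± 0.21 (SE, limma, adjusted p = 0.0161, n = 4 each), a level 1.71-fold lower. It lost the call without replicate number 1 or number 4. In cytosolic RNA the MRPL44 difference was -0.40 ± 0.21 and did not pass (limma, adjusted p = 0.207).

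MRPL42, a mitochondria-specific protein, had levels of 7.67, 7.59, 7.50 and 7.98 on polysomes with PP242, against 8.55, 8.45, 8.26 and 8.47 with vehicle. Again no PP242 array reached a vehicle array. The difference was -0.75 ± 0.16 (SE, limma, adjusted p = 0.00375), and without replicate number 1 it was no longer called. MRPL18, whose bacterial relative binds 5S ribosomal RNA, had levels of 10.57, 10.41, 9.52 and 10.09 with PP242, against 11.18, 10.97, 10.67 and 10.71 with vehicle. The difference was -0.73 ± 0.20 (limma, adjusted p = 0.0165), was lowest on PP242 array 3, and was not called without number 2 or number 4.

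The promoters of these members with the largest falls are shown for the elements at their starts, which are counted over all members further on. Each is given from RefSeq on GRCh38.p14, 5′ to 3′, with 250 bases before and 50 from the annotated start on. Capitals mark a run of at least 5 pyrimidines at the start in MRPL44 and the element AAGATGGC in MRPL42. The MRPL18 window, in lower case throughout, held none of the motifs searched.
MRPL44, chr2:223957213-223957512, plus strand: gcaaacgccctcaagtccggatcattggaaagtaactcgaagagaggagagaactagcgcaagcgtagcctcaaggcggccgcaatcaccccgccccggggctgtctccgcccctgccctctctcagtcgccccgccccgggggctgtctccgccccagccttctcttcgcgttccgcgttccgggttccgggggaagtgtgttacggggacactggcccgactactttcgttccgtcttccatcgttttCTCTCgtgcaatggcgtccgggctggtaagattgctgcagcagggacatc
MRPL42, chr12:93467264-93467563, plus strand: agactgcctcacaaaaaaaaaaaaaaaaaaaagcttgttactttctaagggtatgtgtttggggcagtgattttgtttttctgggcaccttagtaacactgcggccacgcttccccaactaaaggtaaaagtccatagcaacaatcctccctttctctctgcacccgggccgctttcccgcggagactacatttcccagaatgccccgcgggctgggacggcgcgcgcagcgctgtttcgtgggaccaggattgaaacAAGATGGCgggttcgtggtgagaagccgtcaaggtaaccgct
MRPL18, chr6:159789562-159789861, plus strand: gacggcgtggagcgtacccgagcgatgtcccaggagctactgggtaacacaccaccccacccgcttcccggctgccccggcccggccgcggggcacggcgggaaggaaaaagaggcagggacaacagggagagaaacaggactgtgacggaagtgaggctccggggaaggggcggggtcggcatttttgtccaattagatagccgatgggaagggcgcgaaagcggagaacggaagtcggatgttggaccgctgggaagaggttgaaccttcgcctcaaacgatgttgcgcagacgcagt

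**Figure D1:**
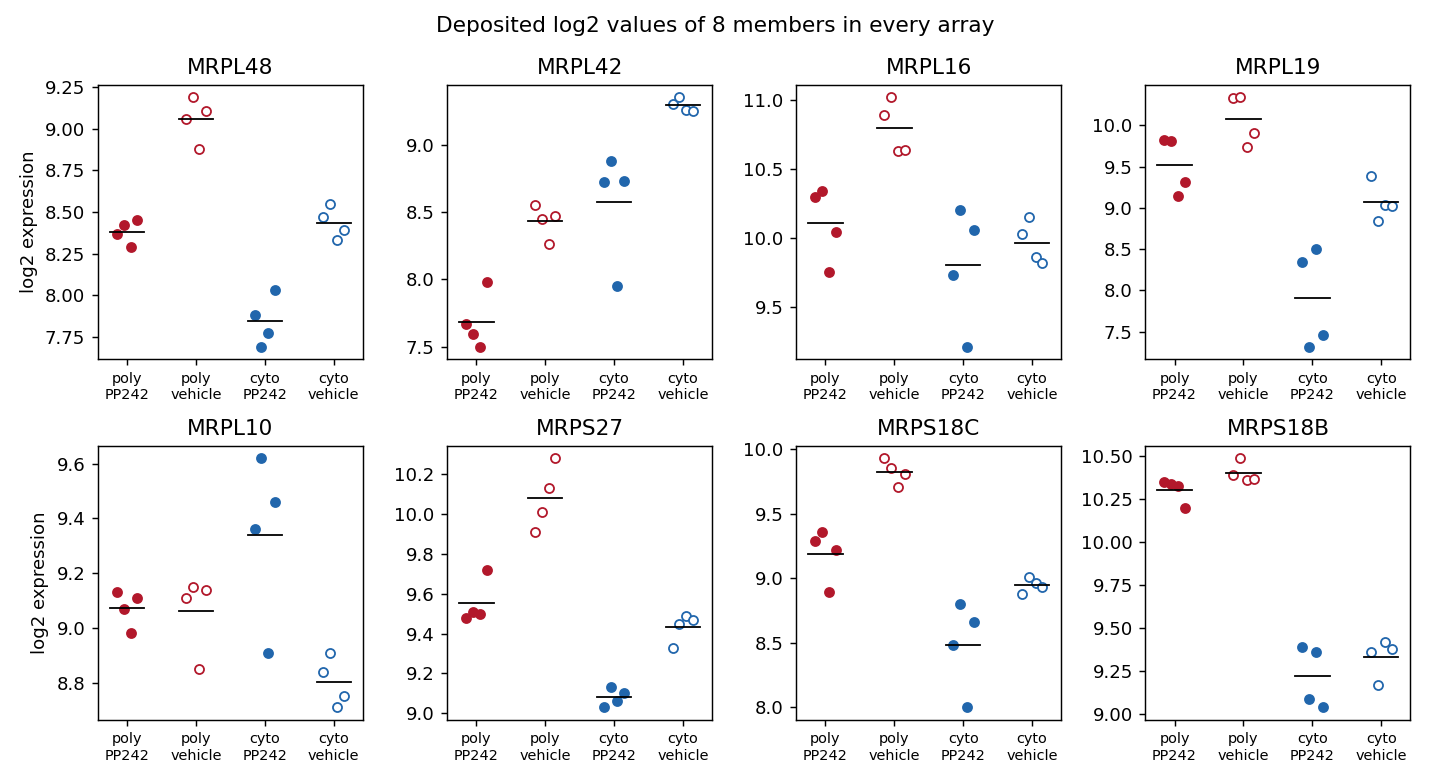
Deposited log2 values (y axis, own scale in each panel) of 8 members in each array of the 4 groups, with horizontal lines at the group means. Filled points are PP242 and open points vehicle, red is polysome and blue cytosolic RNA. In MRPL48, MRPL42, MRPS27 and MRPS18C all PP242 points lie below all vehicle points in both pools, and in MRPL10 the cytosolic PP242 points reach 9.62.

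MRPL16 sits close to the peptidyl transferase centre. Its levels were 10.30, 10.34, 9.75 and 10.04 on polysomes with PP242, against 10.89, 11.02, 10.63 and 10.64 with vehicle. The polysome difference of -0.69 ± 0.18 (limma, adjusted p = 0.0151) stood beside a cytosolic difference of -0.16 ± 0.18 that did not pass (limma, adjusted p = 0.583). The polysome call was lost without replicate number 1 or number 4.

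The central protuberance, the part of the large subunit that contacts the small one and the tRNAs, held the call with the smallest p. MRPL48 had levels of 8.37, 8.42, 8.29 and 8.45 on polysomes with PP242, against 9.06, 9.19, 8.88 and 9.11 with vehicle, a difference of -0.68 ± 0.11 (limma, adjusted p = 0.000243). In cytosolic RNA it had 7.88, 7.69, 7.77 and 8.03 with PP242, against 8.47, 8.55, 8.33 and 8.39 with vehicle, a difference of -0.59 ± 0.11 (limma, adjusted p = 0.000844). The groups were apart in both pools, and both calls were kept whichever replicate number was left out.

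MRPL46, a second protein of the protuberance, had 8.20, 8.30, 8.05 and 8.27 on polysomes with PP242, against 8.76, 8.88, 8.77 and 8.83 with vehicle. The polysome difference was -0.61 ± 0.12 (limma, adjusted p = 0.00149), and the cytosolic one -0.38 ± 0.12 (limma, adjusted p = 0.036), a call that was lost without any 1 of the 4 numbers. MRPL38 and MRPL40 belong to the same region and did not pass on polysomes, with differences of -0.43 and -0.01.

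Other large subunit members were called lower as well. MRPL58 is a peptidyl-tRNA hydrolase built into the ribosome and is also known as ICT1. It had 9.94, 9.96, 9.63 and 9.78 on polysomes with PP242, against 10.25, 10.41, 10.49 and 10.57 with vehicle. Its difference of -0.60 ± 0.15 passed (limma, adjusted p = 0.0109), but not without number 3. MRPL13 differed by -0.66, MRPL28 and MRPL49 by -0.58 each, MRPL34 by -0.57 and MRPL47 by -0.51, all called. MRPL37, MRPL14, MRPL27, MRPL22 and MRPL20, with falls between 0.46 and 0.31 on the log2 scale, complete the 17 called members of the large subunit.

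Among small subunit proteins, 7 of 27 were called lower. MRPS18C had 9.29, 9.36, 8.89 and 9.22 on polysomes with PP242, against 9.93, 9.85, 9.71 and 9.81 with vehicle, a difference of -0.64 ± 0.15 (limma, adjusted p = 0.00582). MRPS27, a protein with pentatricopeptide repeats, had 9.48, 9.51, 9.50 and 9.72 with PP242, against 9.91, 10.01, 10.13 and 10.28 with vehicle, a difference of -0.53 ± 0.10 (limma, adjusted p = 0.00152). In both proteins the groups did not overlap.

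MRPS7, MRPS11 and MRPS10, members of bacterial ribosomal protein families, differed on polysomes by -0.60 ± 0.15, -0.60 ± 0.16 and -0.59 ± 0.15. MRPS31 and MRPS22 differed by -0.48 and -0.42. Every PP242 array was below every vehicle array for MRPS7, MRPS10 and MRPS11. The calls of MRPS7 and MRPS11 held only without number 3, and that of MRPS22 in none of the 4 fits.

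The members furthest from the fall were MRPL24 (0.19 ± 0.14), MRPS21 (0.08 ± 0.11), MRPL52 (0.07 ± 0.11) and MRPS5 (0.06 ± 0.15). None of them passed. MRPL24 had 10.39, 10.37, 10.16 and 10.31 on polysomes with PP242, against 10.36, 10.21, 9.90 and 10.00 with vehicle, and the groups overlapped.

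**Figure D2:**
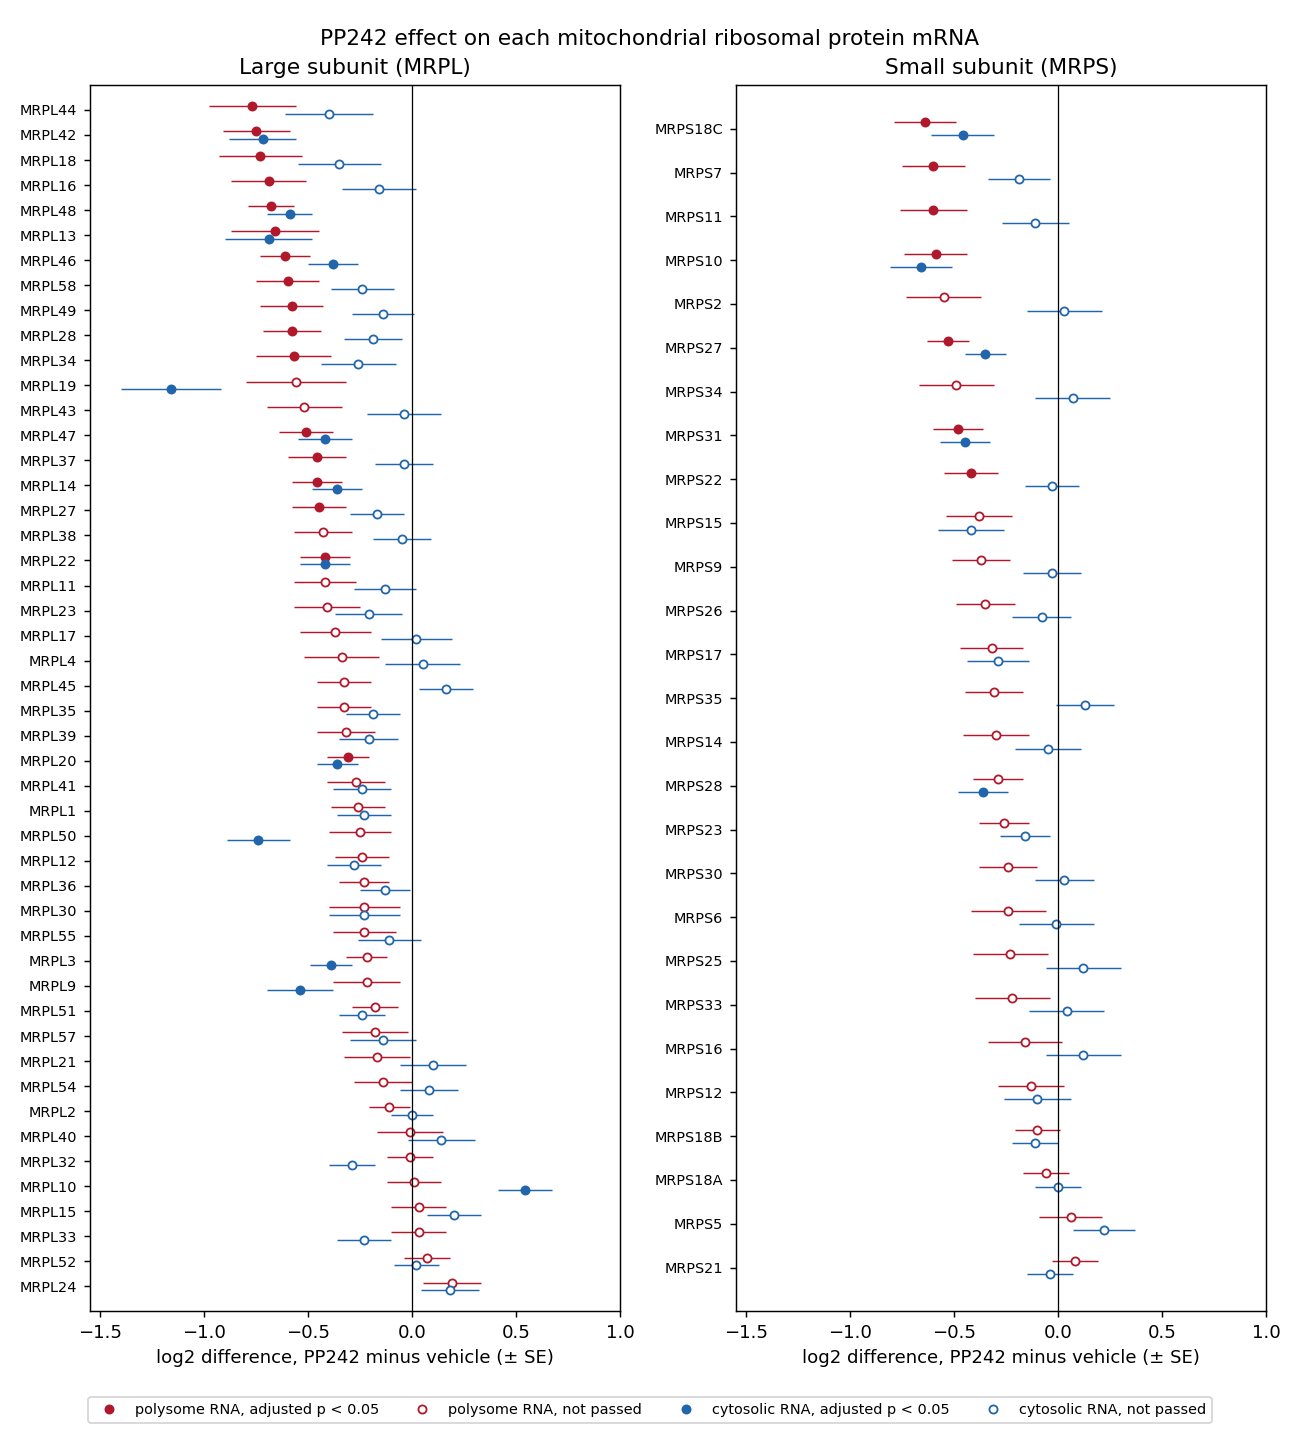
Log2 difference, PP242 minus vehicle, for each of the 48 large and 27 small subunit members (rows, sorted by the polysome difference), with bars of 1 SE from limma. Red is polysome and blue cytosolic RNA, and filled points passed an adjusted p of 0.05. The red points of 68 members lie left of 0, while cytosolic points spread from -1.16 (MRPL19) to 0.54 (MRPL10).

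Probe sets other than the one used were available for 37 members. Of these 65 further probe sets, 47 had the same sign of the polysome difference, 10 were called lower and 0 higher, and in no member were probe sets called in opposite directions. These calls come from a separate fit over all 54613 probe sets, whose share of calls was not computed. For MRPL44 the second, dimmer probe set (mean 5.56) differed by -0.13 on polysomes, and for MRPS18C the others (means 3.99 and 2.65) by 0.06 and 0.02. Those of MRPS27 (mean 2.97) and MRPS11 (mean 3.48) differed by 0.02 each. The others of MRPL20 (means 4.21 and 3.58) differed by 0.10 and -0.02, and those of MRPS31 (means 8.60 and 4.15) by -0.37 and 0.10. Brighter probe sets could also differ. Those of MRPS10 (means 9.73 and 9.43) gave -0.52 and -0.15 on polysomes, and -0.53 and -0.12 in cytosolic RNA.

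In cytosolic RNA, PP242 lowered 17 members and raised 1, at the same threshold. Over all genes 7.91% were called lower and 8.54% higher, 16.5% in all. The median difference of the members was -0.16, compared with 0.04 over all genes. It was below 0 for 55 of 75 members (73.3%, against 43.6% of all genes). All PP242 arrays lay below all vehicle arrays for 14 members (18.7%), as for 8.34% of all genes (17.7% apart in either direction). Leaving out 1 replicate number at a time gave 7 calls without number 1, 8 without number 2, 11 without number 3 and 7 without number 4. These are 9.33%, 10.7%, 14.7% and 9.33% of the members, beside 11.9%, 7.8%, 16.8% and 8.11% of all genes, which are similar shares. The members called lower were 9.33%, 10.7%, 13.3% and 9.33%, beside 6.13%, 4.48%, 7.76% and 4.64% of all genes. The member median was -0.14, -0.21, -0.03 and -0.22 in these fits, and so lay near that of all genes (0.05) without number 3. MRPL19, MRPL42, MRPL48, MRPL50 and MRPS10 were called in all 4 fits. When the fit held the 8 cytosolic arrays alone, 8 members were called (10.7%, all lower), a share like the 10.5% of all genes called, of which 5.58% were lower. With genes of mean level under 5 left out, 19 members (25.3%) were called, slightly below the 27.1% of all genes. Called lower were 24% of members and 13.1% of all genes.

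The largest cytosolic fall was that of MRPL19, a member of the bacterial L19 family. It had 8.35, 7.32, 8.50 and 7.46 with PP242, against 9.39, 8.84, 9.03 and 9.02 with vehicle, a difference of -1.16 ± 0.24 (limma, adjusted p = 0.00235). PP242 arrays 2 and 4 were the lowest, and the groups did not overlap. On polysomes MRPL19 had 9.82, 9.81, 9.15 and 9.32 with PP242, against 10.33, 10.34, 9.74 and 9.91 with vehicle, and the difference of -0.56 ± 0.24 did not pass (limma, adjusted p = 0.155).

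MRPL50, a mitochondria-specific protein, showed the same arrays low. It had 8.02, 7.57, 8.21 and 7.56 in cytosolic RNA with PP242, against 8.51, 8.45, 8.69 and 8.66 with vehicle, a difference of -0.74 ± 0.15 (limma, adjusted p = 0.00256). MRPL42 (-0.72), MRPL13 (-0.69), MRPS10 (-0.66) and MRPL9 (-0.54) followed. MRPL3, which lies close to the peptidyl transferase centre, fell by 0.39 and MRPS28 by 0.36 on the log2 scale.

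MRPL10, the base of the stalk that recruits translation factors, was the member that rose. It had 9.36, 9.62, 8.91 and 9.46 in cytosolic RNA with PP242, against 8.84, 8.91, 8.71 and 8.75 with vehicle. The groups touched, with PP242 array 3 at the highest vehicle value. The difference was 0.54 ± 0.13 (limma, adjusted p = 0.00867), and it was called only in the fit without number 3. On polysomes MRPL10 differed by 0.01 ± 0.13.

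The same 12 members were called lower in both pools, namely MRPL42, MRPL48, MRPL13, MRPS18C, MRPL46, MRPS10, MRPS27, MRPL47, MRPS31, MRPL14, MRPL22 and MRPL20. They made up 12 of the 24 polysome calls and 12 of the 17 lower cytosolic calls. Another 12 passed only on polysomes, 5 passed as lower only in cytosolic RNA, and 45 members were called in neither pool. The shares of all genes called in both pools, in a single pool or in neither were not computed. These counts therefore describe the members without a background. Across the 75 members the differences in the pools correlated at 0.532 (Pearson) and 0.507 (Spearman). Across all 19775 genes these values were 0.728 and 0.538. The points are genes read from the same 16 arrays and are not independent replicates.

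The cytosolic difference was not the same in the 4 replicate numbers. Its member median was -0.19 in number 1, 0.05 in number 2, -0.48 in number 3 and 0.07 in number 4. Below 0 lay 64, 32, 72 and 30 of the 75 members. On polysomes the medians were -0.28, -0.35, -0.40 and -0.36, with 65, 68, 69 and 70 members below 0. Within cytosolic RNA with PP242 the median SD of a member was 0.325, compared with 0.0957 with vehicle, 0.14 on polysomes with PP242 and 0.131 on polysomes with vehicle. The same SD over all genes in cytosolic RNA with PP242 was 0.245.

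Cytosolic PP242 arrays 2 and 4 stood apart and carried the lowest array weights of the 16 in limma (0.36 and 0.251). Without them the cytosolic median was -0.37, with 23 members (30.7%) called lower and 0 higher, beside 9.99% of all genes called and 6.59% called lower. In the same fit, added after seeing the data, 38 members (50.7%) were called lower on polysomes, beside 18.3% of all genes called and 9.04% called lower. What sets these arrays apart was not tested.

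**Figure D3:**
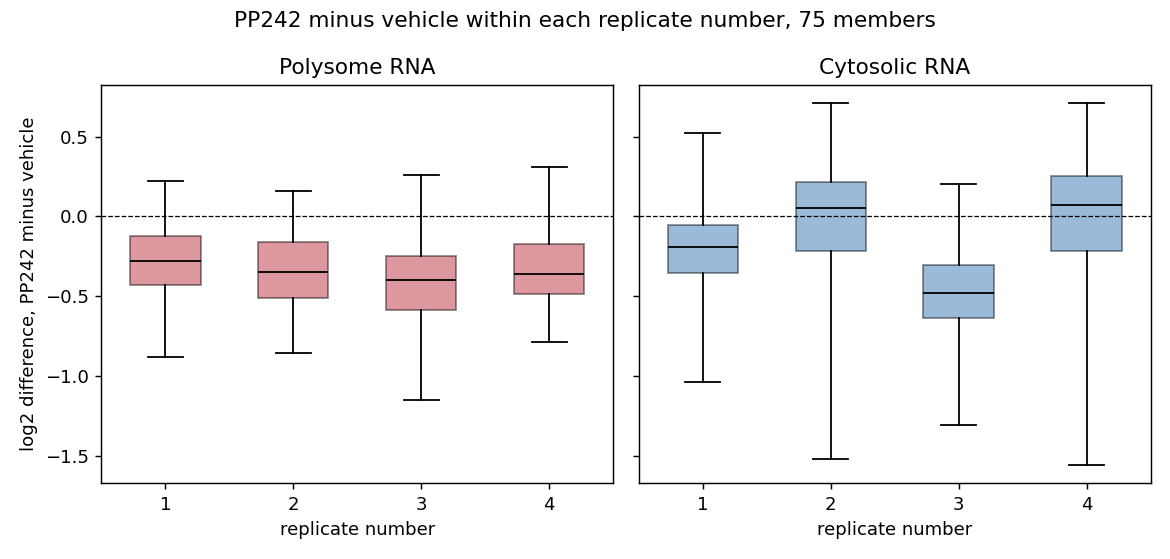
Log2 difference of each of the 75 members, PP242 minus vehicle, within each replicate number (x axis), for polysome RNA (left) and cytosolic RNA (right). Boxes span the quartiles with a line at the median, and whiskers reach the lowest and highest member. On polysomes all 4 medians lie between -0.40 and -0.28, while in cytosolic RNA they lie at -0.19, 0.05, -0.48 and 0.07.

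The effect of PP242 on polysome association was taken as the polysome difference minus the cytosolic difference. No member and no gene of the 19775 was called, by limma with or without the replicate block (percent called 0). At an unadjusted p under 0.05 there were 8 members (10.7%) and 1750 genes (8.85%), and the lowest adjusted p among members was 0.558. That unadjusted share moved with the arrays used. It was 24% of members and 14.9% of all genes with the replicate block, 26.7% and 11.8% without number 3, and 0% of members without number 2 or number 4 (3.28% and 4.54% of all genes). The member median was -0.17, compared with -0.04 over all genes, and 57 of 75 members were below 0 (76%, against 56.3% of all genes). Without cytosolic PP242 arrays 2 and 4 that median was 0.04.

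The lowest association values were those of MRPS2 (-0.58 ± 0.26), MRPS34 (-0.56 ± 0.25) and MRPL10 (-0.53 ± 0.19). The highest were those of MRPL19 (0.61 ± 0.34) and MRPL50 (0.49 ± 0.22). For MRPL48, which fell in both pools, the value was -0.09 with a 95% interval of -0.41 to 0.24. For MRPL16, called on polysomes only, it was -0.52 with an interval of -1.06 to 0.02. Unadjusted intervals of some members lay apart from 0, such as that of MRPL45 (-0.86 to -0.12), but none passed after adjustment.

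The large and the small subunit were compared over the 4 groups. On polysomes 17 of 48 large subunit members (35.4%) and 7 of 27 small subunit members (25.9%) were called lower, with medians of -0.33 and -0.31, each beside 6.55% of all genes. The median of the large subunit minus that of the small was -0.016 on the log2 scale. In cytosolic RNA 12 large subunit members were lower and 1 was higher, and 5 small subunit members were lower, beside 7.91% of all genes lower and 8.54% higher, with medians of -0.21 and -0.05 and a gap of -0.159. For polysome association the medians were -0.12 and -0.23. These gaps carry no test, since members are not replicates.

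The array medians show the same by group. In polysome RNA with PP242 the large subunit median was 9.91, 9.89, 9.64 and 9.77 in arrays 1 to 4, against 10.28, 10.34, 10.03 and 10.15 with vehicle. The small subunit median was 9.88, 9.83, 9.58 and 9.90 with PP242, against 10.13, 10.08, 10.15 and 10.27 with vehicle. For both subunits all PP242 arrays lay below all vehicle arrays.

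In cytosolic RNA with PP242 the large subunit median was 9.30, 9.47, 8.90 and 9.43, against 9.39, 9.40, 9.38 and 9.34 with vehicle. The small subunit median was 9.39, 9.58, 9.10 and 9.67 with PP242, against 9.43, 9.43, 9.49 and 9.56 with vehicle. Here the groups overlapped for both subunits, and array 3 with PP242 was the lowest of all cytosolic arrays.

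**Figure D4:**
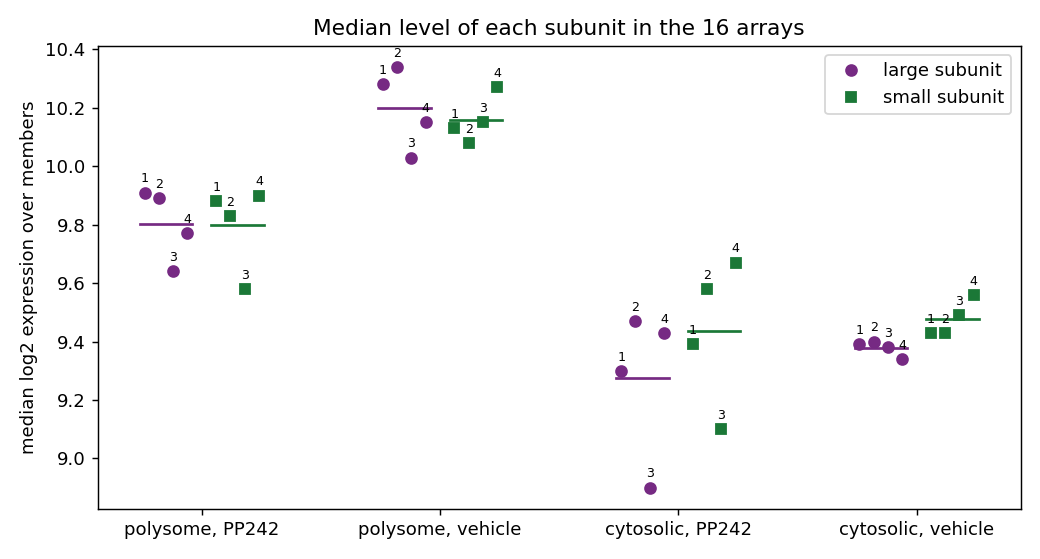
Median log2 level of the 48 large subunit members (circles) and 27 small subunit members (squares) in each of the 16 arrays, by group (x axis), with the replicate number above each point and lines at the group means. On polysomes the PP242 medians reach at most 9.91 and the vehicle medians at least 10.03, and in cytosolic RNA PP242 array 3 is lowest in both subunits.

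MRPS18A and MRPS30 carry small subunit symbols but lie in the large subunit of the structure. With them moved, the large subunit had 17 of 50 members called lower on polysomes and the small subunit 7 of 25, with medians of -0.33 and -0.32. Neither was itself called on polysomes, with differences of -0.06 for MRPS18A and -0.24 for MRPS30. Split by origin, a grouping made after the values were seen, 14 of 44 members of bacterial protein families and 10 of 31 mitochondria-specific members were called lower, beside 6.55% of all genes, with medians of -0.33 and -0.32.

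MRPS18A, MRPS18B and MRPS18C are 3 related proteins that take different places in the ribosome. MRPS18C fell on polysomes (above), while MRPS18B had 10.35, 10.34, 10.33 and 10.20 with PP242, against 10.39, 10.49, 10.36 and 10.37 with vehicle. MRPS18A had 9.23, 9.25, 9.11 and 9.25 with PP242, against 9.33, 9.24, 9.23 and 9.27 with vehicle. On polysomes the PP242 difference of MRPS18C minus that of MRPS18B was -0.54, and minus that of MRPS18A it was -0.58. Each gave p = 0.0286 in a two-sided exact permutation test of the within-array difference (4 arrays against 4, the smallest p this design allows), and 0.0572 adjusted over the 6 such comparisons. In cytosolic RNA the value for MRPS18C minus MRPS18A was -0.46 (exact permutation p = 0.0286, adjusted 0.0572), and the comparison with MRPS18B gave p = 0.286 in the exact permutation test. None of the 6 passed after adjustment. With labels exchanged only within the 4 same-numbered pairs, a test added after seeing the data, the 3 comparisons at 0.0286 gave an exact p of 0.125, the smallest that 4 pairs allow.

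Polysome over cytosolic RNA was compared after quantile normalization across all 16 arrays. With PP242, 36 members were higher on polysomes and 8 lower (limma, adjusted p under 0.05), beside 23.7% and 22.3% of all genes (46% in all). With vehicle, 41 were higher and 5 lower, beside 24% and 20.4% of all genes (44.3% in all). The member medians were 0.31 with PP242 and 0.40 with vehicle, compared with 0.02 and 0.03 over all genes. On the deposited values the split was 45 higher and 5 lower with PP242, and 53 and 2 with vehicle, while over all genes the medians moved to -0.18 and -0.16, with 3174 genes higher and 7529 lower, and 3326 and 7105. Both conditions were compared against their own cytosolic arrays, and the difference between them is the association effect given above.

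In vehicle the highest polysome over cytosolic values belonged to MRPS26 (1.17), MRPL52 (1.13), MRPL28 (1.12), MRPL23 (1.02) and MRPL55 (1.02). With PP242 they belonged to MRPL19 (1.56), MRPL52 (1.28), MRPL22 (1.03), MRPL12 (1.03), the factor-binding stalk protein, and MRPS26 (1.02). On the quantile-normalized scale MRPL52 averaged 11.12 ± 0.08 in polysome RNA and 9.84 ± 0.18 in cytosolic RNA with PP242, and 10.93 ± 0.10 in polysome RNA and 9.80 ± 0.07 in cytosolic RNA with vehicle (SD, n = 4 each).

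MRPL42 was the lowest in both conditions, at -0.91 with PP242 and -0.99 with vehicle. MRPL45, which anchors the ribosome to the inner membrane near the exit tunnel, was called lower in both (-0.75 with PP242 and -0.31 with vehicle), as were MRPS35 (-0.77 with PP242 and -0.40 with vehicle) and MRPS6 (-0.68 with PP242 and -0.50 with vehicle). MRPL51 was also called lower in both (-0.66 with PP242 and -0.77 with vehicle), while MRPL34 was called lower with PP242 only (-0.68). On the deposited values the vehicle calls of MRPL45 (-0.16), MRPS35 (-0.07) and MRPS6 (-0.16) were lost, as was that of MRPS6 with PP242 (-0.39). The vehicle calls were also lost for MRPL45 without number 1 or 2, for MRPS35 without number 1, 2 or 3, and for MRPS6 without number 2 or 4.

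By subunit, 25 of 48 large subunit members were higher and 6 lower with PP242, and 25 higher and 3 lower with vehicle, with a median of 0.37 in each. Of the 27 small subunit members, 11 were higher and 2 lower with PP242, and 16 higher and 2 lower with vehicle, with medians of 0.28 and 0.40. Over all genes 23.7% were higher and 22.3% lower with PP242, and 24% higher and 20.4% lower with vehicle.

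**Figure D5:**
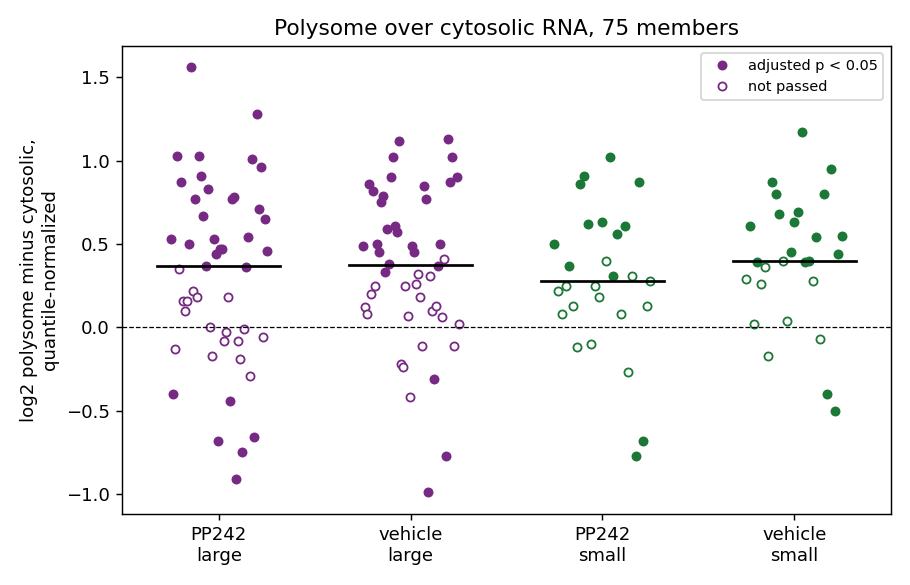
Log2 polysome minus cytosolic level after quantile normalization (y axis) of each member, for the large (purple) and small (green) subunit with PP242 and with vehicle, filled where the adjusted p was under 0.05, with lines at the medians. The medians are 0.37 and 0.37 for the large and 0.28 and 0.40 for the small subunit, and MRPL42 is the lowest point in both large subunit columns.

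Promoter windows from RefSeq (GRCh38.p14, 250 bases before to 50 from the annotated start on) matched 67 of the 75 members, on a background of 15843 protein-coding genes. Motifs were searched on both strands. The ETS family motif CCGGAAG stood in 41.8% of member windows (28 of 67, 95% exact binomial interval 29.8% to 54.5%), compared with 14.2% of all. The element AAGATGGC, shared by YY1 sites and by TISU, the translation initiator of short 5′ leaders, stood in 28.4% (19 of 67), compared with 3.86%. On the sense strand within the 50 bases from the annotated start on it stood in 20.9% of members (14 of 67), compared with 2.13%.

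Other motifs were closer to the background. The NRF1 palindrome stood in 1.49% of members and 1.77% of all, its form with any bases at the 2 central positions, which includes it, in 13.4% and 11.9%, the E-box CACGTG in 10.4% and 8.84%, and TATAAA in 2.99% and 9.76%.

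The start windows with AAGATGGC are shown for members called lower on polysomes and for members that did not pass, with the element in capitals, 30 bases from the annotated start on, from RefSeq.
MRPL46, chr15:88467359-88467388, minus strand, called lower: gagaacgaAAGATGGCggcgcccgtaaggc
MRPS7, chr17:75261879-75261908, plus strand, called lower: ggggtcctcgtggccagccAAGATGGCtgc
MRPS10, chr6:42217832-42217861, minus strand, called lower: gggaccggcAAGATGGCggcgcggacagcg
MRPS27, chr5:72320211-72320240, minus strand, called lower: ccttttggtacgctccAAGATGGCtgcctc
MRPL20, chr1:1407264-1407293, minus strand, called lower: atttccgacccgggcAAGATGGCagcggcg
MRPL38, chr17:75904855-75904884, minus strand, not passed: ggagggAAGATGGCggcgccctggtggcga
MRPS18A, chr6:43687762-43687791, minus strand, not passed: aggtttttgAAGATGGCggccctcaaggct
In each the ATG of the element lies within 30 bases of the start. The element stood in 7 of 23 members called lower with a window and in 7 of 44 that did not pass, and the median polysome difference was -0.38 with it and -0.32 without it. Over the whole window and both strands the order was the other way, with -0.31 for the 19 members with the element and -0.34 for the 48 without it. For the ETS motif the medians were -0.33 with and -0.33 without. A match describes these letters only and shows no binding or use.

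A terminal oligopyrimidine tract, the element by which mTOR controls mRNAs of cytosolic ribosomal proteins, begins with a C at the start followed by further pyrimidines. A run of at least 5 from a C at the annotated start stood in 7.46% of members (5 of 67), compared with 4.6% of all genes, and a run of at least 7 in 0 of 67 (exact upper bound 5.36%), compared with 2.46%. The 5 members were MRPL44, MRPS2, MRPS27, MRPL45 and MRPS33, of which MRPL44 and MRPS27 were called lower on polysomes. Their starts are shown for MRPS2 and MRPS33, with the run in capitals, as those of MRPL44 and MRPS27 stand above.
MRPS2, chr9:135499965-135499994, plus strand: CCTCTgcgggtgggtccggaacctgccggg
MRPS33, chr7:141014923-141014952, minus strand: CTTCCgggacgagggcgcgtgggtgaggaa
MRPS2 differed on polysomes by -0.55 ± 0.18 (limma, adjusted p = 0.0536) and MRPS33 by -0.22 ± 0.18. Start sites are those of the annotation and not of this cell line. The one used for MRPL44 lies inside the gene's annotated span, as given above.

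The genes that build and serve this ribosome were read from lists, whose counts stand beside 6.55% of all genes called lower and 6.82% higher on polysomes, and 7.91% lower and 8.54% higher in cytosolic RNA. Of 7 measured subunits and partners with other names, 3 were called lower on polysomes and 0 higher, namely NDUFAB1, the mitochondrial acyl carrier protein, CHCHD1, a small subunit protein, and OXA1L, the inner membrane insertase. NDUFAB1 had 11.75, 11.63, 11.45 and 11.75 with PP242, against 12.29, 12.23, 12.09 and 12.19 with vehicle, a difference of -0.55 ± 0.13 (limma, adjusted p = 0.00528). CHCHD1 differed by -0.55 ± 0.15 and OXA1L by -0.42 ± 0.13. In cytosolic RNA CHCHD1 (-0.51) and NDUFAB1 (-0.40) were lower.

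Of 12 translation factors and related genes, 1 was higher (8.33%, near the share of all genes) and 2 were lower (16.7%) on polysomes. METAP1D, a mitochondrial methionine aminopeptidase, had 6.44, 6.39, 6.72 and 5.94 with PP242, against 5.82, 5.78, 5.42 and 5.64 with vehicle, a difference of 0.71 ± 0.15 (limma, adjusted p = 0.00251). MTRFR, a ribosome rescue factor, differed by -0.74 ± 0.20, and TACO1, the activator of cytochrome oxidase subunit I translation, by -0.46 ± 0.14. In cytosolic RNA 0 of the 12 passed.

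Of 28 assembly and ribosomal RNA processing genes, 5 were lower (17.9%, beside 6.55% of all genes) and 0 higher on polysomes. In cytosolic RNA 6 were lower (21.4%, beside 7.91%) and 4 higher (14.3%, beside 8.54%). MRM2, a methyltransferase of the large ribosomal RNA, differed by -0.50 ± 0.11 on polysomes and -0.67 ± 0.11 in cytosolic RNA, and was called whichever number was left out. MPV17L2, an assembly factor of the inner membrane, differed by -0.51 ± 0.11 on polysomes. C1QBP differed by -0.34 ± 0.09 on polysomes and -0.49 ± 0.09 in cytosolic RNA, and MALSU1, a large subunit assembly factor, by -0.15 ± 0.11 and -0.65 ± 0.11, of which the cytosolic difference passed (limma, adjusted p = 0.000348).

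Of 13 genes of mitochondrial DNA transcription and RNA stability, 1 was lower on polysomes (7.69%, near the 6.55% of all genes) and 3 were lower in cytosolic RNA (23.1%, beside 7.91%). TFAM, which packages mitochondrial DNA and starts its transcription, differed by -0.45 ± 0.13 on polysomes and -0.63 ± 0.13 in cytosolic RNA (limma, adjusted p = 0.00165). SLIRP (-0.52) and the elongation factor TEFM (-0.39) were lower in cytosolic RNA. Of 15 mitochondrial aminoacyl-tRNA synthetases, 1 was lower on polysomes (6.67%, the share of all genes being 6.55%), namely NARS2 (-0.49 ± 0.12, limma, adjusted p = 0.0103), and in cytosolic RNA EARS2 was lower (-0.35) and VARS2 higher (0.75). The medians of the 5 lists on polysomes were -0.41, -0.14, -0.15, -0.19 and -0.12 in the order given, beside -0.32 for the ribosomal proteins and 0 for all genes. Of the 11 polysome calls named from these lists, METAP1D, MPV17L2 and MRM2 were kept whichever replicate number was left out, and OXA1L and TACO1 in none of those fits. Of the 10 cytosolic calls, C1QBP, MALSU1, MRM2 and TFAM were kept in all, and EARS2 and NDUFAB1 in none.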

How the data were processed

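The authors deposited 1 table of log2 values for 54613 probe sets on 16 arrays, made with RMA per the submitters' processing notes. Its version, the background settings and the arrays normalized together: not given in the sources used here. Values ran from 1.65 to 14.61 with 0 missing. The number of arrays limits the precision. Matching quantiles spread by 0.08 among cytosolic, 0.07 among polysome and 0.41 over all arrays.

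Of the probe sets, 41091 list 1 gene in the platform annotation, 1801 several, and 11721 are not in that table. The probe set with the highest mean stood for each of 19775 genes. limma 3.58.1 (R 4.3.3, statmod 1.5.0) fitted 1 mean per group over all arrays, with eBayes and an intensity trend. P-values are two-sided and adjusted by Benjamini-Hochberg across the 19775 genes, with calls at an adjusted p under 0.05. The PP242 contrasts used deposited values, and polysome over cytosolic RNA used quantile-normalized values. Same-numbered arrays of compared groups deviated together (16 of 16 correlations over 0.1, from 0.164 to 0.51), so the numbers pair the samples from the data, not from a label. The fit was tested on simulated data. For 19775 genes and changes of 0.3, 0.5, 0.75 and 1 (log2), it recovered 0, 30, 62 and 88% on polysomes and 0, 24, 74 and 94% in cytosolic RNA. Only 50 genes of each size were changed there, while 2644 and 3253 genes were called in the data. The adjusted threshold was therefore harder to pass in the simulation, and these shares are no detection limit for the data.

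Members and gene lists were chosen with earlier results of these data known. Members named in the text are those called in a PP242 contrast, the 5 highest and 5 lowest called members in polysome over cytosolic RNA, the MRPS18 proteins and MRPS30, and, per list, up to 3 called genes with the smallest p. Members outside this rule, among them MRPL24, MRPS21, MRPL52, MRPS5, MRPL38, MRPL40, MRPS2, MRPS33 and MRPS34, were chosen after their values were seen. Alternatives covered the replicate block, each replicate left out, normalization, probe set choice, array weights, a filter on dim genes and subsets of arrays.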

Additional observations from a re-analysis of the deposited data

Results flagged for a closer look

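Within groups of 4 arrays, 204 groups of named genes and subunit medians were examined with Dixon's test at 95%. Of these, 8 held an outlying array, a share no larger than the about 1 in 20 that chance gives. In polysome RNA with PP242, MRPL50 was lowest on array 3 at 8.54, with the others between 8.95 and 8.99, and MRPS18A was lowest on the same array at 9.11, with the others between 9.23 and 9.25. MRPS18B was lowest on array 4 at 10.2, with the others between 10.33 and 10.35, and MRPS27 was highest on array 4 at 9.72, with the others between 9.48 and 9.51. TFAM was highest in the same group on array 2 at 10.65, with the others between 10.17 and 10.2. In polysome RNA with vehicle, MRPL10 was lowest on array 3 at 8.85, with the others between 9.11 and 9.15. MRPL47 was highest there on array 2 at 11.73, with the others at 11.72, a gap no larger than the rounding of the table. In cytosolic RNA with vehicle, NARS2 was highest on array 4 at 8.84, with the others between 8.7 and 8.72.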

How the results depend on the processing

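Among the recomputed values of named genes, 1041 kept their side of the threshold and 306 lost the call. Of values called in either fit, 0 reversed direction. A change of sign in a value called in neither fit was not counted as a reversal. The count of members called on polysomes, 24, became 37 with the replicate block (49.3%, beside 20.3% of all genes). It was 14 with quantile normalization over all arrays (18.7%, beside 11.5%, median -0.20). The arrays numbered 1 and 2 gave 14 (18.7%, beside 10.1%), and those numbered 3 and 4 gave 1 (1.33%, below the 5.51% of all genes). Without cytosolic PP242 arrays 2 and 4, an alternative chosen after seeing the data, it was 38 (50.7%, beside 18.3%). Leaving out each replicate number gave 8 to 19 (10.7% to 25.3%, beside 8.23% to 9.55%). The count in cytosolic RNA, 18, became 8 with arrays 1 and 2 (10.7%, below the 12.4% of all genes). It was 1 with arrays 3 and 4 (below the 5.35% of all genes) and 8 with the cytosolic arrays alone (10.7%, beside 10.5%). With a replicate number left out it was 7 to 11 (9.33% to 14.7%, beside 7.8% to 16.8%). The replicate block gave 20 there (26.7%, near the 24.9% of all genes). For polysome over cytosolic RNA it gave 48 with PP242 (64%, beside 52.5%) and 54 with vehicle (72%, beside 51.4%). It gave 0 for association (0% of all genes), and changed no other count by over 1.5 times. With arrays 3 and 4 alone, polysome over cytosolic RNA gave 24 calls with PP242 and 24 with vehicle (32% each, beside 24.3% and 24.1% of all genes). Leaving out a number gave 34 to 43 with PP242 (45.3% to 57.3%, beside 34% to 41.2% of all genes). With vehicle that gave 36 to 49 (48% to 65.3%, beside 34.4% to 38.4%). Fewer arrays enter these fits. The cause of the other shifts was not tested. The large minus small subunit median for association, 0.111, was 0.057 to 0.108 with a number left out (0.078 without number 3, 0.057 without number 4) and 0.029 with the mean of probe sets, and that for polysome over cytosolic RNA with vehicle, -0.027, became 0.188 with the mean of probe sets. The share with a pyrimidine run fell to 0.0% when 7 were required. Of the 24 polysome calls, 3 were kept in all fits without a replicate number and 2 in none. Of the 18 cytosolic calls, 5 were kept in all and 4 in none. The simulated fit recovered 0% of changes of 0.3 on the log2 scale, but it held far fewer changed genes than the data. It sets no limit here, where MRPL20 was called on polysomes at -0.31.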
